A study of Mus musculus with 9 samples.

Results

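The small heat shock proteins *Cryab*, *Hspb1*, *Hspb2*, *Hspb3*, *Hspb6*, *Hspb7* and *Hspb8* and the co-chaperone *Bag3* were followed across 3 *Ctcf* genotypes of the mouse embryonic heart. These 8 genes were taken by name from 24571 gene symbols, and all 8 were among the 13682 genes that averaged at least 1 TPM and were tested. The 8 were chosen with earlier results of these data known, so shares of all genes set beside them describe and do not test. TPM is a transcript level corrected for transcript length and for the total of the library, so levels of different genes can be compared and each value is relative to the other transcripts. The hearts came from C57BL/6N embryos at E18.5 with 0, 1 or 2 *Ctcf* alleles for CTCF-R567W, a germline substitution made by CRISPR/Cas9 in the chromatin organiser CTCF. These groups are called wild type, heterozygous and homozygous. Each genotype gave 3 RNA-seq libraries of whole heart, 9 in all. Hearts were collected singly, but how many went into a library was not given in the sources used here, and the p-values cover the spread between these libraries alone. The table holds TPM, so the sequencing depth of a library is unknown.

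Small heat shock proteins are chaperones that bind partly unfolded proteins without using ATP and hand them to the HSP70 system. In heart muscle they lie along the sarcomere and the desmin network. BAG3 joins HSPB8 to HSP70 and passes damaged filamin and other Z-disc proteins to selective autophagy, and mutations in *CRYAB*, *HSPB8* and *BAG3* are known causes of inherited muscle and heart disease.

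The heart libraries were not equally pure. The summed level of 12 cardiomyocyte markers was 48221 to 56241 TPM in 8 libraries and 39444 TPM in homozygous replicate 3. That library also carried 12 thymocyte genes at 581.9 TPM and 5 thymic epithelium genes at 222.0 TPM, against at most 2.78 and 10.3 TPM elsewhere. Wild-type replicate 1 held lung genes at a sum of 2620 TPM. Heterozygous replicate 1 held lung genes at 1108 TPM and liver genes at 3940 TPM. The summed level of 8 erythroid genes was 2854 to 14606 TPM in the wild-type group, 5114 to 15542 in heterozygotes and 4305 to 5150 in homozygotes. Between homozygous and wild-type hearts 7 of these 8 were below 0, with a median of -0.65 (log2), and none passed limma's test. With the haemoglobin and mitochondrially encoded genes left out of the table, no member passed in any comparison. Of 9 skeletal muscle genes, *Myog*, *Myf5* and *Myh3* stayed at or below 0.67, 0.15 and 0.30 TPM. *Actn3*, *Mylpf*, *Myh8*, *Tnnt3* and *Tnni2* reached 4.13, 6.58, 6.24, 6.07 and 10.4 TPM, and *Ckm* read 927 to 1474 TPM. *Xist* stood at 87.8 TPM or more in wild-type replicate 1, homozygous replicate 1 and all 3 heterozygous libraries and at 0.05 TPM or less in the other 4. The heterozygous group thus held libraries with *Xist* alone, and the other 2 groups held both kinds. *Ctcf* itself was read at 27.0 to 34.3 TPM in wild-type and 38.9 to 50.2 TPM in homozygous hearts, which does not check the labels because the allele is a substitution.

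*Cryab* and *Hspb2* lie head to head on chromosome 9 of mm10, *Cryab* at chr9:50751325-50756636 on the plus strand and *Hspb2* at chr9:50751078-50752354 on the minus strand. In the GENCODE M21 annotation 252 exonic bases are shared between them on opposite strands, which is 17.0% of the exonic bases of *Cryab* and 30.2% of those of *Hspb2*. Whether reads were counted by strand was not given in the sources used here, so reads from that stretch cannot be assigned to either gene with certainty. The other members lie apart, *Hspb1* at chr5:135887919-135889563, *Hspb8* at chr5:116408491-116422864, *Hspb6* at chr7:30552178-30555443, *Bag3* at chr7:128523616-128546981, *Hspb7* at chr4:141420779-141425311 and *Hspb3* at chr13:113662896-113663676. *Hspb1* shares 52.3% of its 31-base words with the pseudogene *Hsp25-ps1* and 41.9% on the opposite strand with *Gm9817*. Those copies were read at 0 to 0.96 TPM and 0.03 to 0.39 TPM, so little signal had been given to them, although how shared reads were split is uncertain.

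Heat shock factors bind inverted repeats of the unit NGAAN, and the members were searched for its shortest paired form. RefSeq windows of 250 bases before and 50 after a start (GRCm38.p6) were held for 6 of the 8 members, *Bag3*, *Hspb1*, *Hspb3*, *Hspb6*, *Hspb7* and *Hspb8*. The paired core GAANNTTC occurred in 5 of these 6 genes, against 7.86% of all 32851 windows, and the reverse arrangement TTCNNGAA in none, against 8.52%. The 6 genes held 7 windows, so a share of genes is set here against a share of windows. The extra window belonged to *Hspb6*. Its core lay only in the downstream window (chr7:30553051-30553350), inside the gene span given above, and not in the upstream one. Both patterns read the same on either strand. The matches are shown because 4 of the 5 genes held the identical core GAAGTTTC. The share of all windows with that exact core was not taken. The capitals mark the core within 30 bases, and positions count from 1 at the first transcribed base of RefSeq.

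Hspb1, chr5:135887791-135887820, plus strand, core at -117 to -110: cttcaacaagaGAAGTTTCcagatgggggc
Hspb1, chr5:135887811-135887840, plus strand, core at -97 to -90: agatgggggcaGAACCTTCctggccccgcc
Hspb6, chr7:30553170-30553199, plus strand, core at -120 to -113: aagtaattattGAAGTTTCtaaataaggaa
Hspb3, chr13:113663882-113663911, minus strand, core at -224 to -217: ctccccgaatgGAATTTTCaggcagaggga
Hspb8, chr5:116422844-116422873, minus strand, core at 3 to 10: agaagccaggaGAAGTTTCtaggctcgcga
Bag3, chr7:128523603-128523632, plus strand, core at 43 to 50: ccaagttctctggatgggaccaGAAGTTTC

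*Hspb1* held 2 cores 20 bases apart, while in *Hspb8* and *Bag3* the core lay after the start. *Hspb7*, a chaperone found mainly in heart and skeletal muscle, held none of the patterns searched. TATAAA stood in *Hspb3* and in the downstream window of *Hspb6*, against 13.6% of windows. A MEF2 motif, overlapping the TATAAA of *Hspb3*, stood in that gene against 3.19%. No member window held a CArG box (1.63% of windows) or the CTCF core searched (0.557%). These are matches of letters and carry no measurement of binding.

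In wild-type hearts 4 of the 8 members, *Hspb7*, *Hspb2*, *Hspb6* and *Hspb3*, overlapped no neighbour in level. *Hspb1* at 626 ± 33.1 TPM (SD, n = 3) and *Cryab* at 621 ± 15.8 TPM stood highest and overlapped each other. *Hspb7* followed at 483 ± 43.3 TPM, then *Hspb2* at 125 ± 1.47 TPM and *Hspb6* at 99.2 ± 16.9 TPM. *Bag3* at 44.2 ± 5.42 TPM and *Hspb8* at 42.6 ± 2.72 TPM overlapped, above *Hspb3* at 33.0 ± 2.11 TPM. In homozygous hearts *Cryab*, *Hspb1* and *Hspb7* overlapped in sequence, as did *Hspb2* with *Hspb6*, *Bag3* with *Hspb8* and *Hspb8* with *Hspb3*. The 7 small heat shock protein genes had a summed level of 1999 to 2082 TPM in the wild-type group, against 1810 to 2046 for heterozygotes and 1450 to 1928 for homozygotes. The 3 other genes of the family that were looked up, the lens gene *Cryaa* and the testis genes *Hspb9* and *Odf1*, did not exceed 0.63 TPM in any library and were not tested.

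**Figure D1:**
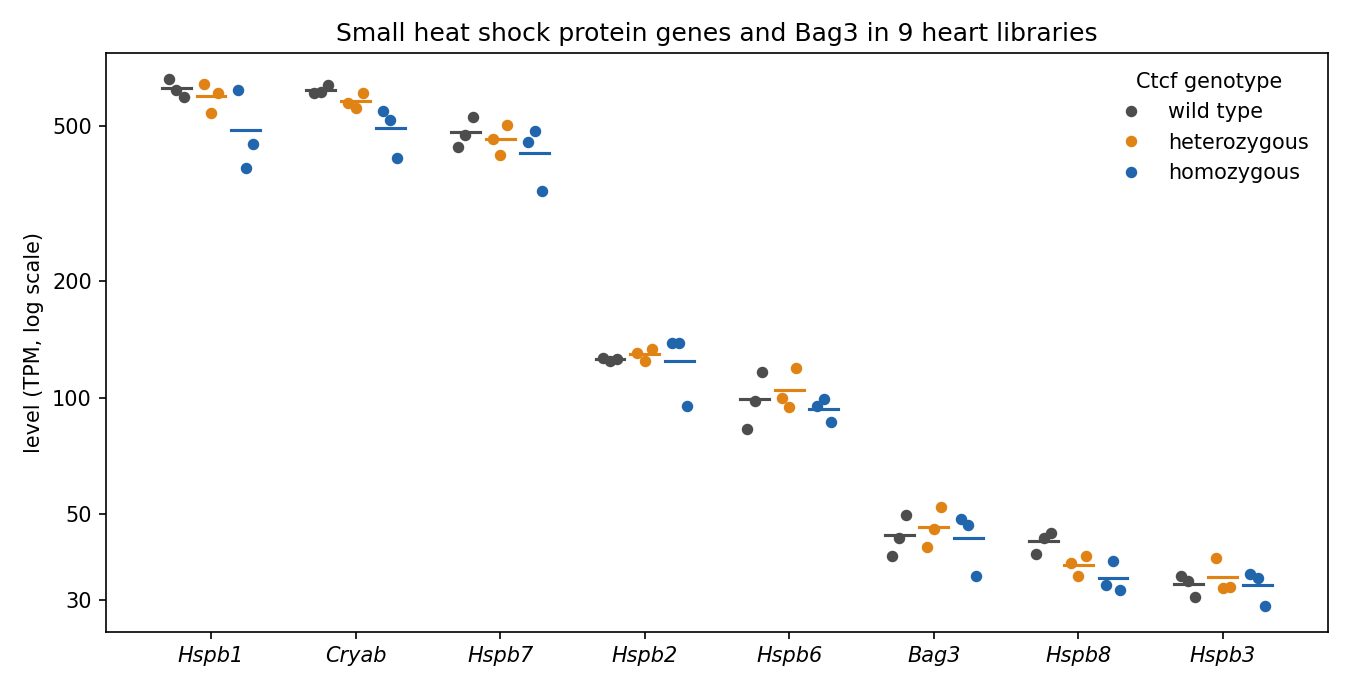
Level of each member in TPM on a log axis, 1 point per library and a bar at the mean of each genotype (n = 3). The wild-type and homozygous points of Cryab and Hspb8 do not overlap, and the lowest homozygous point is replicate 3 for 7 of the members.

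The first question was how homozygous hearts differ from wild type. No member passed limma's test on log2(TPM + 1) at an adjusted p under 0.05 in any of the 3 comparisons. Among all genes 46 passed between homozygous and wild-type hearts, which is 0.336% of them. At an unadjusted p under 0.05, 3 members were lower, *Cryab*, *Hspb1* and *Hspb8*, and none higher, against 2.16% of all tested genes lower and 25% in either direction. The homozygous values lay below the wild-type values without overlap for 2 of 8 members, *Cryab* and *Hspb8*, against 2.38% of all genes. For no member did they lie above, against 22.3% of all genes. All 8 fitted changes were below 0, against 18.2% of all genes, with a median of -0.13 (log2) against 0.23 over all genes. Every member stood below that median. The count of 8 rested on homozygous replicate 3. Without it *Hspb2*, *Hspb3* and *Bag3* were above 0, at 0.14, 0.07 and 0.12, and the share of all genes below 0 was not taken there. On values rescaled to the summed cardiomyocyte markers *Hspb2*, *Hspb3*, *Hspb6* and *Bag3* were above 0.

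*Cryab* encodes alpha B crystallin, the chaperone of desmin. The wild-type hearts read 610.0, 614 and 639 TPM, the heterozygotes 573, 559 and 609 TPM and the homozygotes 549, 520 and 414 TPM. The 3 groups stood in order without overlap, which 29 of all tested genes, 0.212%, also did in this direction. The homozygous mean of 494 ± 70.7 TPM was below the wild-type mean by 0.34 (log2, SE 0.11, 95% interval -0.58 to -0.10), with an unadjusted p of 0.0108 and an adjusted p of 0.126 by limma. The heterozygous mean of 580 ± 25.9 TPM differed from wild type by -0.10 (adjusted p = 0.755) and the homozygous from the heterozygous by -0.24 (adjusted p = 0.706). Without homozygous replicate 3, which has the lowest value, the change from wild type was -0.22 (adjusted p = 0.0961). Libraries with *Xist* read 610.0, then 573, 559 and 609, then 549 TPM, and those without it 614 and 639 against 520 and 414 TPM. Groups that do not overlap keep their order in any such subset, so this order is no check on *Xist*.

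*Hspb2*, the partner of *Cryab* on the other strand and a chaperone of muscle, was level across the wild-type and heterozygous hearts and spread more among homozygotes (CV of 1.17%, 3.36% and 20.0%). The wild-type hearts read 127, 124 and 126 TPM, the heterozygotes 131, 125 and 133 TPM and the homozygotes 139, 138 and 95.4 TPM. Homozygous replicates 1 and 2 had the highest values of the 9 and replicate 3 the lowest. The fitted change was -0.04 (SE 0.14, 95% interval -0.35 to 0.27, adjusted p = 0.876), and it was 0.14 without homozygous replicate 3 (adjusted p = 0.189).

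The ratio of the neighbours does not depend on how a library is scaled. The *Cryab* to *Hspb2* ratio of TPM was 4.81, 4.96 and 5.09 in wild-type, 4.39, 4.48 and 4.58 in heterozygous and 3.96, 3.76 and 4.35 in homozygous hearts. The groups were ordered by the number of mutant alleles with no overlap at either step, with means of 4.95 ± 0.140, 4.48 ± 0.0945 and 4.02 ± 0.296 (SD, n = 3). *Cryab* by itself already stood in this order, so the order of the ratio is not a separate result. How many other gene pairs are ordered in this way was not taken. On the log2 scale, with 1 TPM added to each gene, homozygous hearts differed from wild type by -0.30. The exact two-sided permutation test gave p = 0.1, the smallest that 3 against 3 libraries allow, and 0.3 after adjustment over the 3 ratios tested. Leaving out any 1 library kept the difference between -0.36 and -0.26. Reads from the exonic bases that the 2 genes share may have been assigned to either.

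**Figure D2:**
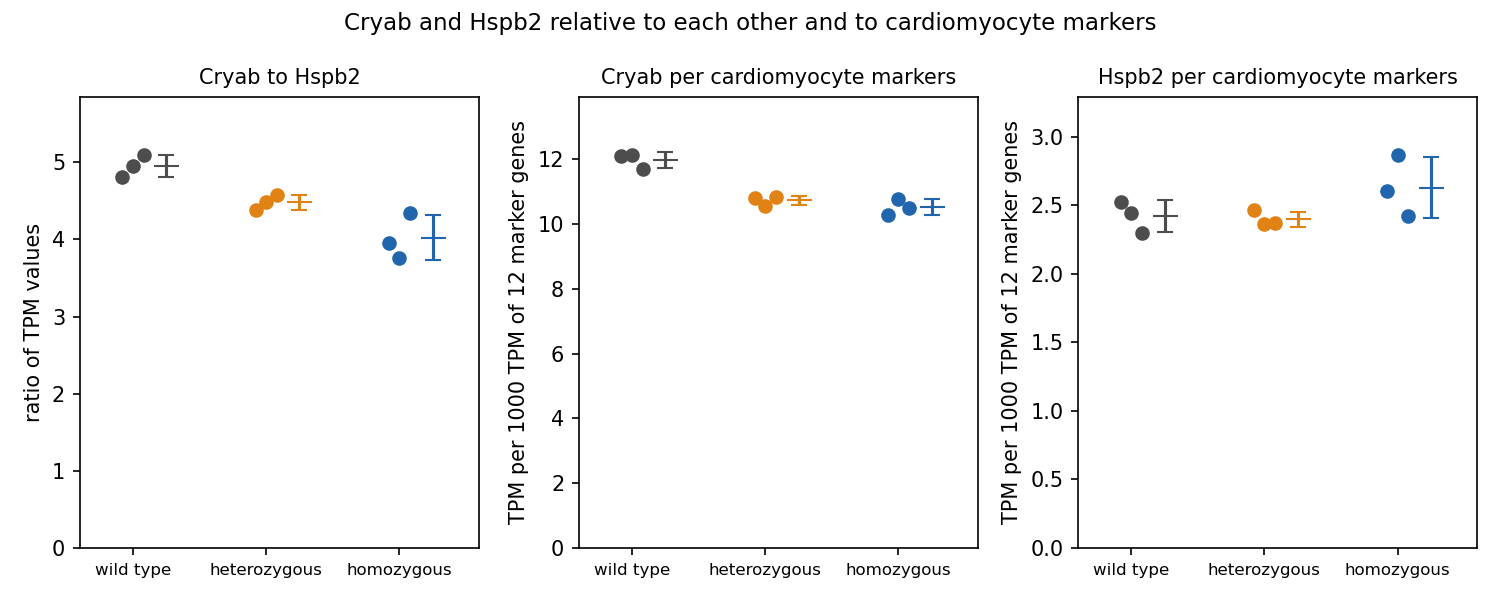
Left, ratio of Cryab to Hspb2 in TPM. Middle and right, Cryab and Hspb2 in TPM per 1000 TPM of 12 cardiomyocyte marker genes, with 1 point per library and mean and SD (n = 3) beside them. All axes start at 0. The ratio steps down from wild type (4.81 to 5.09) to homozygous (3.76 to 4.35), and the middle panel shows wild type above both mutant groups.

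Across the 9 libraries *Cryab* and *Hspb2* gave a Pearson r of 0.68 (permutation p = 0.213) and a Spearman rho of -0.17 (permutation p = 0.681). Without wild-type replicate 3 and homozygous replicate 3, the libraries farthest from the median of *Cryab*, r was -0.63 (exact permutation p = 0.143) and rho -0.71 (exact permutation p = 0.0881), so the positive r rested on them. As deviations from the group means the pair gave r = 0.96 and rho = 0.85 over the 9 libraries, which share the scaling of each library. Homozygous replicate 3 was far below its group mean for both genes, and without it the deviations of the other 8 libraries gave r = 0.66 and rho = 0.52.

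In whole hearts, fewer cardiomyocytes and less RNA per cardiomyocyte cannot be told apart. Set against the summed cardiomyocyte markers, *Cryab* stood at 12.1, 12.1 and 11.7 TPM per 1000 TPM of markers in wild-type, 10.8, 10.6 and 10.8 in heterozygous and 10.3, 10.8 and 10.5 in homozygous hearts. On this scale homozygous replicate 3 was no longer apart, both mutant groups lay below wild type without overlap, and they overlapped each other. A limma fit on values rescaled this way, chosen after the marker sums were seen, gave *Cryab* a change of -0.19 between homozygous and wild-type hearts (adjusted p = 0.0582). The same fit put *Hspb2* at 0.11 (adjusted p = 0.289), called 4409 genes and had a median of 0.37 over all genes. Of the 12 markers, 7 were below 0 between homozygous and wild-type hearts in the TPM values, and none passed. *Myl2* (-0.27) and *Mb* (-0.34) were lower without overlap, so the marker scale may not be neutral to genotype. The share of all genes without overlap was not taken on that scale.

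*Hspb8* encodes the small heat shock protein that works in a complex with BAG3. The wild-type hearts read 39.5, 43.5 and 44.7 TPM, the heterozygotes 37.4, 34.6 and 39.1 TPM and the homozygotes 32.9, 37.9 and 31.9 TPM. All 6 mutant values lay below the wild-type values, and the mutant groups overlapped each other. The homozygous change was -0.31 (SE 0.11, 95% interval -0.56 to -0.06, unadjusted p = 0.0201, adjusted p = 0.146), and -0.26 without homozygous replicate 3 (adjusted p = 0.137). Per 1000 TPM of cardiomyocyte markers the heterozygous hearts stayed below wild type, at 0.656 to 0.704 against 0.785 to 0.859. The homozygous hearts, at 0.618, 0.785 and 0.810, then overlapped wild type.

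*Bag3*, the partner of *Hspb8*, showed no such pattern. The wild-type hearts read 39.2, 43.5 and 49.9 TPM, the heterozygotes 41.1, 45.8 and 52.2 TPM and the homozygotes 48.6, 47.0 and 34.6 TPM. The fitted change was -0.03 (SE 0.16, 95% interval -0.38 to 0.31, adjusted p = 0.902) and 0.12 without homozygous replicate 3. The *Hspb8* to *Bag3* ratio was 1.01, 1 and 0.896 in wild-type, 0.910, 0.757 and 0.748 in heterozygous and 0.678, 0.805 and 0.923 in homozygous hearts. Homozygous replicate 3 overlapped the wild-type ratios and the other 2 homozygous hearts did not. For the difference of -0.27 (log2) the exact two-sided permutation test gave p = 0.2, and 0.3 adjusted over the 3 ratios.

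*Hspb1* encodes HSP25, an actin-associated chaperone that smooth muscle also expresses strongly. The wild-type hearts read 661, 622 and 596 TPM, the heterozygotes 645, 542 and 610.1 TPM and the homozygotes 623, 391 and 452 TPM. Homozygous replicate 1 lay within the wild-type range and the other 2 homozygous hearts lay below every other library. The fitted change of -0.39 was the largest among the members, with the widest homozygous spread (SD 120 TPM, SE of the change 0.15, unadjusted p = 0.0296, adjusted p = 0.163). The summed level of 6 smooth muscle markers was 348 and 423 TPM in those same 2 hearts against 499 to 711 TPM in the other 7, and its part in the *Hspb1* values was not tested. *Acta2* led this sum, and the 6 markers did not move together. In homozygous replicate 2 *Acta2* and *Cnn1* were the lowest of the 9 libraries (196 and 6.25 TPM). *Smtn* and *Mylk* were the highest there (104 and 7.47 TPM), and *Tagln* and *Myh11* were neither. The gene whose levels ran most like *Hspb1* over the 9 libraries was the smooth muscle calponin *Cnn1* (r = 0.957), read at 22.1 to 25.4 TPM in wild-type and at 16.1, 6.25 and 8.93 TPM in homozygous hearts. The *Cryab* to *Hspb1* ratio was 0.922, 0.987 and 1.07 in wild-type hearts and 0.881, 1.33 and 0.917 in homozygous hearts, overlapping, with a difference of 0.05 (log2, exact two-sided permutation p = 1).

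*Hspb7*, which binds filamin C at the sarcomere, read 444, 476 and 529 TPM in the wild-type hearts, 465, 423 and 504 TPM in the heterozygotes and 455, 487 and 341 TPM in the homozygotes. Of the homozygotes, replicate 3 alone lay below the wild-type range. The change was -0.19 (SE 0.14, adjusted p = 0.391) with that heart and -0.03 without it (adjusted p = 0.833).

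*Hspb6*, which encodes HSP20, a target of cyclic nucleotide kinases in heart muscle, read 83.0, 97.9 and 117 TPM in the wild-type hearts, 99.5, 94.6 and 119 TPM in the heterozygotes and 95.2, 99.0 and 86.7 TPM in the homozygotes. The homozygous values lay inside the wild-type range, and the change was -0.07 (SE 0.14, 95% interval -0.38 to 0.24, adjusted p = 0.755). *Hspb3*, the muscle partner subunit of HSPB2, read 34.7, 33.6 and 30.7 TPM in the wild-type hearts, 38.5, 32.4 and 32.6 TPM in the heterozygotes and 35.03, 34.3 and 29.1 TPM in the homozygotes. The groups overlapped throughout. Its change was -0.01 (SE 0.12, 95% interval -0.28 to 0.26, adjusted p = 0.963), while its complex partner *Hspb2* was at -0.04.

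**Figure D3:**
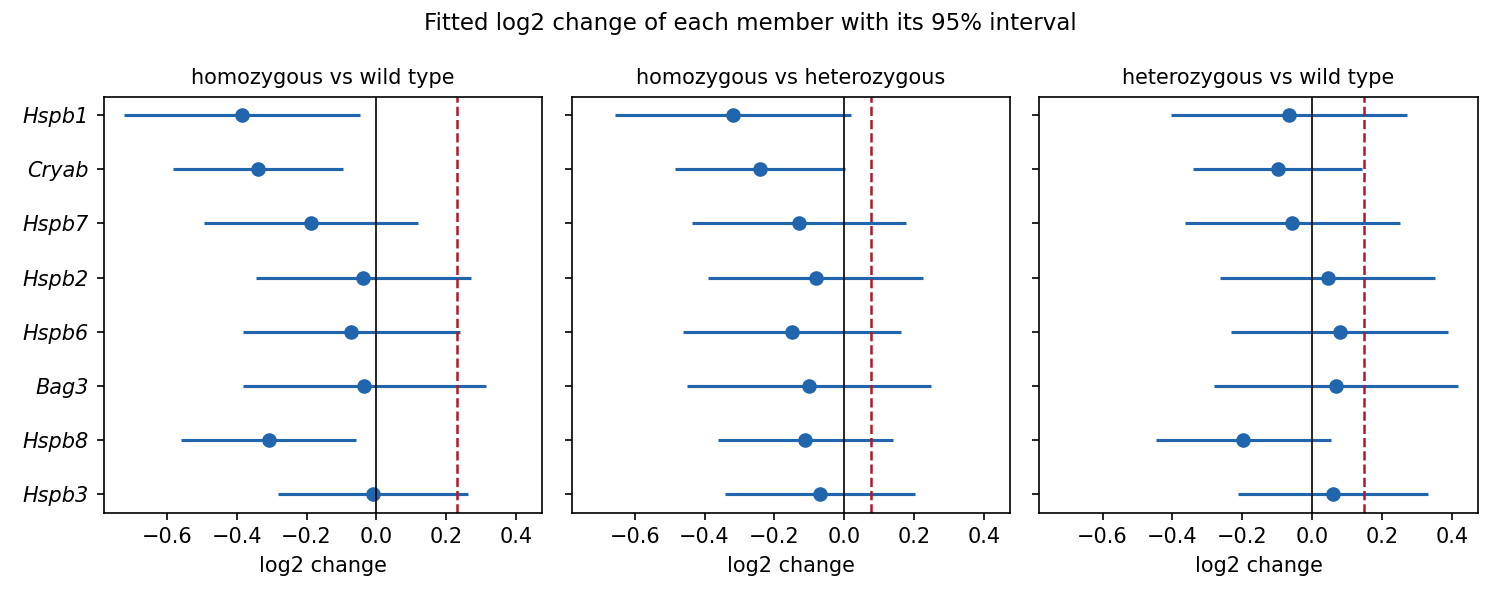
Fitted log2 change of each member in the 3 comparisons, with points at the estimate, bars for the 95% interval and a dashed line at the median of all 13682 tested genes. Against wild type the homozygous intervals of Hspb1, Cryab and Hspb8 lie below 0, and the heterozygous intervals all cross 0.

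Whether a member passed depended on the scaling and the weighting of the libraries. The median of all genes was 0.23 in the TPM values and 0.01 after median-ratio scaling, and relative to all genes the homozygous change of *Cryab* was -0.57, of *Hspb8* -0.54, of *Hspb7* -0.42 and of *Hspb1* -0.62. After median-ratio scaling 3 members passed limma's test as lower in homozygous hearts, *Cryab* (-0.59, adjusted p = 0.0177), *Hspb8* (-0.56, adjusted p = 0.016) and *Hspb7* (-0.44, adjusted p = 0.0451), along with 240 genes in all. *Hspb8* alone passed after quantile normalization (-0.48, adjusted p = 0.0334), in a fit that called 71 genes. With limma's library weights *Cryab* (-0.20, adjusted p = 0.00842) and *Hspb8* (-0.35, adjusted p = 0.00109) passed, in a fit that called 8755 genes.

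Homozygous and heterozygous hearts were compared to see what the second mutant allele adds. No member passed limma's test, against 0.0439% of all genes, and none had an unadjusted p under 0.05, against 7.15% of all genes. *Cryab* alone lay lower without overlap (1 of 8), against 3.85% of all genes. All 8 changes were below 0, from -0.32 for *Hspb1* (adjusted p = 0.725) to -0.07 for *Hspb3* (adjusted p = 0.924), against 34% of all genes. Without homozygous replicate 3 the changes of *Hspb2*, *Hspb3*, *Hspb7* and *Bag3* were above 0, at 0.10, 0.01, 0.02 and 0.05.

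Heterozygous and wild-type hearts were compared to see how hearts with 1 mutant allele differ from those with none. These groups differ in *Xist* too, carried by replicate 1 alone of the wild-type libraries, and replicate 1 of each held transcripts of other organs. No member passed limma's test, against 0.0146% of all genes, and none had an unadjusted p under 0.05, against 6.87% of all genes. *Cryab* and *Hspb8* lay lower without overlap (2 of 8), against 1.03% of all genes. *Hspb8* had the largest change at -0.20 (SE 0.11, 95% interval -0.45 to 0.05, adjusted p = 0.672), and it passed with library weights (-0.22, adjusted p = 0.0375), a fit that called 4425 genes. The changes of *Hspb2*, *Hspb3*, *Hspb6* and *Bag3* were above 0 and the other 4 of 8 below 0, against 18.3% of all genes. Those 4 lay between 0.04 and 0.08, and below 0 after median-ratio scaling. The comparisons share libraries, so their values are not independent of each other.

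The members were set beside 80 other genes, of which 76 were tested. The 80 cover chaperones, co-chaperones and heat shock factors, and also client proteins and genes of selective autophagy. None passed in any of the 3 comparisons. Between homozygous and wild-type hearts 3 of the 76 were lower and 8 higher at an unadjusted p under 0.05 by limma. Of all tested genes 2.16% were lower and 25% passed in either direction. Below 0 were 18 of the 76, against 18.2% of all genes and 8 of 8 members. Without homozygous replicate 3 the members *Hspb2*, *Hspb3* and *Bag3* were above 0. The median of the 76 was 0.11, against 0.23 over all genes and -0.13 for the members. Of the marker lists, 7 of 12 cardiomyocyte genes (median -0.08) and 4 of 6 smooth muscle genes (median -0.36) were also below 0. For fibroblast and epicardium this was 1 of 9, and for endothelium and endocardium 0 of 8. *Hspa8*, the constitutive HSP70 that receives clients from BAG3, stood at 834 ± 79.7 TPM in wild-type and 909 ± 110 TPM in homozygous hearts (0.12, adjusted p = 0.477). The mitochondrial HSP70 *Hspa9* stood at 295 ± 37.8 and 295 ± 38.6 TPM with a change near 0 (adjusted p = 0.992). The genes listed with *Bag3* in selective autophagy had a median of 0.15 over 9 genes, and among them the lysosomal membrane gene *Lamp1* stood at 150.4 ± 18.3 and 165 ± 20.4 TPM (0.13, adjusted p = 0.507). The other 5 BAG genes had a median of 0.23. The highest of them by level, *Bag6* and *Bag1*, stood at 102 ± 21.4 and 102 ± 6.48 TPM in wild-type and at 124 ± 20.5 and 103 ± 8.65 TPM in homozygous hearts (0.28 and 0.01, adjusted p = 0.292 and 0.947). *Hsf1*, the master heat shock factor, was read at 19.2 ± 0.947 TPM and 19.2 ± 2.25 TPM (-0.01, adjusted p = 0.963), and *Hsbp1*, whose product binds heat shock factor, at 96.8 ± 5.75 and 111 ± 12.0 TPM (0.19, adjusted p = 0.281). The stress-inducible *Hspa1a* and *Hspa1b*, named after their values were seen, stayed between 1.71 and 4.24 TPM in all 9 libraries, the level of weakly expressed genes here.

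The most abundant HSP40 genes, *Dnajc7* and *Dnaja1*, stood at 93.2 ± 17.2 and 85.7 ± 9.57 TPM in wild-type and at 123 ± 13.0 and 109 ± 10.2 TPM in homozygous hearts (0.40 and 0.35, adjusted p = 0.156 and 0.144), higher without overlap in both cases. *Hsp90ab1*, the constitutive cytosolic HSP90, stood at 721 ± 76.3 and 874 ± 123 TPM (0.27, adjusted p = 0.187), and *Hsp90b1*, the HSP90 of the endoplasmic reticulum, at 226 ± 17.9 and 236 ± 28.1 TPM (0.06, adjusted p = 0.739). Of the chaperonins, the mitochondrial *Hspd1* stood at 335 ± 45.8 and 341 ± 39.5 TPM (0.03, adjusted p = 0.893), and its lid *Hspe1* at 245 ± 8.38 and 203 ± 24.8 TPM, lower without overlap (-0.28, adjusted p = 0.154). Among the 9 client genes the median was 0.10 and 3 were below 0. The Z-disc crosslinker *Actn2* stood at 760.2 ± 134 and 669 ± 101 TPM (-0.18, adjusted p = 0.429), and the intermediate filament gene *Vim* at 795 ± 58.8 and 821 ± 242 TPM with a change near 0 (adjusted p = 0.996). The values lowest and highest by fold, named after they were seen, were *Dnaja4* (27.7 to 18.4 TPM, -0.57, adjusted p = 0.088) and the glucocorticoid-induced *Fkbp5* (14.2 to 24.5 TPM, 0.73, adjusted p = 0.0852), both without overlap.

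Within 250 kb of *Cryab*, 13 genes other than *Cryab* were tested and none passed in any comparison. *Cryab* had the lowest homozygous change of the stretch. *Sdhd* and *Timm8b*, mitochondrial genes on its left, were at -0.06 and -0.05. *Ppp2r1b*, a phosphatase subunit on its right, had the highest at 0.44 (10.3 ± 1.39 to 14.3 ± 0.529 TPM, adjusted p = 0.12).

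The genes whose level ran most like that of a member over the 9 libraries, among genes of at least 5 TPM, differed between the members. They were *Rxfp1* for *Cryab* (r = 0.975), *Igfbp5* for *Hspb2* (r = 0.979), *Ephx2* for *Hspb7* (r = 0.984), *Prep* for *Hspb6* (r = 0.977), *Ccl2* for *Hspb8* (r = 0.935), *Pycr1* for *Hspb3* (r = 0.882) and *Popdc2* for *Bag3* (r = 0.976). For *Bag3* the next was *Xirp1* (r = 0.976), another gene of the intercalated disc. *Cryab* itself gave r = 0.846 with *Hspb7*, 0.788 with *Hspb8* and 0.702 with *Hspb1*. These coefficients describe libraries that share purity and scaling, and genotype differences enter them.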

How the data were processed

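RNA was measured in 9 whole-heart libraries of E18.5 mouse embryos, 3 for each *Ctcf* genotype, grouped by the labels. The authors trimmed reads with Trim Galore, aligned them to mm10 with STAR and quantified genes with RSEM, and deposited 1 table of TPM values per gene. Neither the annotation release nor a strand setting was given in the sources used here. TPM keeps no read depth, so the count test named in the study's methods was not run.

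Of 24597 rows, 26 with symbols turned into dates (at most 0.0921% of a library's TPM) were left out. limma 3.58.1 in R 4.3.3 was fitted to log2(TPM + 1) of the 13682 genes averaging 1 TPM or more, as 3 groups without covariates, with a mean-variance trend and Benjamini-Hochberg adjustment over all genes (threshold 0.05). The fit was tested on simulated data first. Fold changes on this scale understate those of low genes. Ratios within a library and correlations used permutation tests (SciPy 1.17.1, 100000 resamples or exact). Ratio tests were adjusted over 3. Lists are described by counts and medians, with no set test. The text names all 8 members, and of each list the genes that passed or the 2 highest by mean TPM. Alternatives covered the pseudocount, filter, scaling, variance model, samples, *Xist* and each library left out. The members and lists were chosen with earlier results of these data known. Locations are from GENCODE M21 (mm10), and promoter windows from RefSeq (GRCm38.p6).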

Additional observations from a re-analysis of the deposited data

How the results depend on the processing

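The first comparison is homozygous with wild type, the second sets homozygous beside heterozygous, and the third is heterozygous with wild type. In that order 46, 6 and 2 of all genes passed and 0 members. The 8 members in 3 comparisons gave 24 changes, refitted under 25 alternatives, and 527 of 600 values kept both direction and side of the threshold. The other 7 passed and 66 took the opposite sign without passing. Some alternatives leave the fitted change itself as it was. These are the filters, the variance models, the replicate block, the fit of only the groups compared, and leaving out a library of the group not compared. In the first comparison *Xist* as a covariate is another. There only the p-value could move, so the direction was bound to be kept. *Cryab* in every comparison and the *Cryab* to *Hspb2* ratio, homozygous with wild type, kept their direction throughout. TPM keeps no depth, so how much of the spread is counting error is unknown. The causes of these differences were not tested.

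For all genes the counts that passed were 61, 8 and 1 with a pseudocount of 0.1, and 31, 2 and 3 with one of 5. Without a filter on low values they were 22, 2 and 3, and with a mean of 5 TPM required 36, 8 and 1. Median-ratio scaling gave 240, 13 and 5 with 3 members in the first comparison, and quantile normalization 71, 11 and 4 with 1. Leaving out mitochondrially encoded and haemoglobin genes gave 77, 10 and 3. Library weights gave 8755, 234 and 4425, with 2 members in the first comparison and 1 in the third. Fitting only the 2 groups compared gave 11, 0 and 0, and *Xist* as a covariate 32, 0 and 1. Without wild-type replicate 1, heterozygous replicate 1 and homozygous replicate 3, which held transcripts of other organs, the counts were 11, 6 and 5. Chosen after seeing the data, rescaling to cardiomyocyte markers gave 4409, 16 and 3, and 1971, 6 and 1 with homozygous replicate 3 also left out. Leaving out 1 library at a time gave 13 to 2170, 1 to 6 and 1 to 6. The first count was 2170 without wild-type replicate 3 and 247 without homozygous replicate 3, and no member passed in any of these fits.

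Whether the replicate numbers pair the samples was not settled. Deviations of same-numbered libraries from their group means had correlations of -0.031 to 0.36, and those of differently numbered libraries -0.31 to 0.12. The highest were between wild-type and heterozygous hearts, for replicate 1 (0.36) and replicate 3 (0.30). Homozygous libraries reached at most 0.065 with same-numbered ones. With the replicate number as a block, 17, 1 and 1 genes passed and 0 members.

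Opposite signs were as follows (log2). In the first comparison, library weights put *Hspb2* at 0.13, *Hspb3* at 0.042 and *Bag3* at 0.13. Without the 3 libraries with other-organ transcripts these were 0.15, 0.11 and 0.035. Rescaling to cardiomyocyte markers gave *Hspb2* 0.11, *Hspb3* 0.14, *Hspb6* 0.081 and *Bag3* 0.12, and, with homozygous replicate 3 also left out, 0.17, 0.10, 0.015 and 0.15, with *Hspb7* at 0.00053. In the second comparison, library weights put *Hspb2* at 0.069 and *Bag3* at 0.077, and *Xist* as a covariate put *Hspb2* at 0.016 and *Hspb3* at 0.015. Without the 3 libraries *Hspb2* was at 0.10, *Hspb3* at 0.093 and *Hspb7* at 0.028. Rescaling to cardiomyocyte markers gave *Hspb2* 0.13, *Hspb3* 0.14, *Hspb6* 0.060, *Hspb7* 0.082, *Hspb8* 0.095 and *Bag3* 0.11, and, with homozygous replicate 3 left out as well, *Hspb2* 0.19, *Hspb3* 0.10, *Hspb7* 0.12, *Hspb8* 0.025 and *Bag3* 0.14. In the third comparison, median-ratio scaling put *Hspb2* at -0.12, *Hspb3* at -0.10, *Hspb6* at -0.086 and *Bag3* at -0.096. Quantile normalization put them at -0.045, -0.077, -0.016 and -0.061. *Xist* as a covariate put *Hspb2* at -0.054 and *Hspb3* at -0.026, leaving out the 3 libraries put *Hspb6* at -0.011, and both rescalings to cardiomyocyte markers put *Hspb2* at -0.014.

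Leaving out 1 library at a time spanned 0 as well. In the first comparison *Hspb2* ran from -0.13 to 0.14, *Hspb3* from -0.061 to 0.071, *Hspb6* from -0.19 to 0.051 and *Bag3* from -0.12 to 0.12. In the second *Hspb2* ran from -0.17 to 0.096, *Hspb3* from -0.12 to 0.013, *Hspb7* from -0.23 to 0.024 and *Bag3* from -0.19 to 0.050. In the third *Hspb1* ran from -0.12 to 0.0030, *Hspb3* from -0.021 to 0.10, *Hspb6* from -0.041 to 0.20, *Hspb7* from -0.12 to 0.011 and *Bag3* from -0.020 to 0.16. The *Cryab* to *Hspb1* ratio between homozygous and wild-type hearts ran from -0.14 without homozygous replicate 2 to 0.15.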
